A study of Mus with 21 samples.

Results

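Brains of embryos with 1 working copy of Nipbl were set directly against brains of embryos with 1 working copy of Wapl, without passing through wild-type libraries. The comparison took the 3 Nipbl+/- libraries and the 7 WaplΔ/+ libraries, 10 of the 21 libraries of the series, and asked which genes tell a reduced dose of the cohesin loader from a reduced dose of the cohesin releaser. All genes were members, and 30552 of the 55335 genes in the table passed the filter on low counts. The other 11 libraries, 5 WT and 6 WaplΔ/+; Nipbl+/- double heterozygotes, stayed outside the contrast and were used to place its genes afterwards. Libraries were made from poly(A) RNA of whole brains of female embryos at E17.5.

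The Nipbl+/- embryos carried 2 wild-type Wapl alleles, and the WaplΔ/+ embryos carried 2 wild-type Nipbl alleles. The Nipbl null allele was made in the sires by the Stra8-icre transgene, which acts in male germ cells before meiosis on a floxed Nipbl allele, so it was present in all cells of the embryo. The WaplΔ allele lacks the promoter and the first exons of the gene in all cells. The paper bred its embryos by 2 crosses, with the WaplΔ allele carried by the dam in the first and by the sire in the second. Which cross gave each library is not given in the sources used here. A further Nipbl+/- library was set aside by the authors and was not analysed here.

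Cohesin is a ring of SMC and kleisin subunits that holds DNA and extrudes it into loops. NIPBL, with its partner MAU2, loads the ring and drives extrusion, and WAPL, with the PDS5 proteins, opens the ring and releases it from DNA. The loader and the releaser therefore act in opposite directions on the amount of cohesin on chromatin and on the length of its loops. Nipbl haploinsufficiency is the most common genetic cause of Cornelia de Lange syndrome, in which brain and limb development are disturbed.

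The 10 libraries held between 25682566 and 34650792 counts on genes. Neuronal markers defined the tissue: Tubb3, a neuronal tubulin, had normalised counts of 60565 ± 2817 (SD, n = 3) in Nipbl+/- and 61318 ± 2585 (SD, n = 7) in WaplΔ/+ brains. The WaplΔ/+ libraries fall into a pair of sets. Replicates 1 and 2 are labelled with the Δ allele first and had 0 and 3 counts of the mitochondrial gene mt-Nd3, as the Nipbl+/- libraries did (4, 3 and 1), while replicates 3 to 7 are labelled with the Δ allele second and had 52 to 106 counts. All 3 Nipbl+/- libraries thus had low counts, and 5 of the 7 WaplΔ/+ libraries had high ones. Genotype and this split therefore cannot be fully told apart in the main contrast. The contrast was also computed against each set. A like split was seen in WT libraries, which carry no Δ allele, with 3, 6 and 1 counts in replicates 1 to 3 and 83 and 75 in replicates 4 and 5. Double heterozygotes had 3, 4, 3 and 2 counts in replicates 1 to 4 and 96 and 68 in replicates 5 and 6. Comparisons with these groups therefore mix libraries with low and high mt-Nd3 counts. On the first principal component of the 10 libraries, which held 30.1% of the variance over 16130 genes, Nipbl+/- replicates 1 and 3 lay at one end (-17.8 and -15.1) and replicate 2, at 0.35, lay among the WaplΔ/+ libraries (-8.60 to 13.4).

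The targeted genes separated the groups in the direction of their labels. The normalised count of Nipbl, on chromosome 15 of GRCm38 from 8289824 to 8465315, was 1136, 1104 and 1287 in the Nipbl+/- libraries and 1956 to 2243 (median 2138) in the WaplΔ/+ libraries. The groups did not overlap, and Nipbl was lower in Nipbl+/- brains (log2 fold change -0.85, SE 0.056, adjusted P = 6.89e-07). Wapl, on chromosome 14 from 34672379 to 34747983, gave 1386, 1319.9 and 1469.7 in Nipbl+/- brains and 590.4 to 755 (median 721) in WaplΔ/+ brains. It was higher in Nipbl+/- brains (log2 fold change 0.998, SE 0.071, adjusted P = 1.04e-06), again with no overlap. A gene of unknown function, 5830448L01Rik, lies within the Wapl locus from 592 to 2289 bases past its start and followed Wapl (log2 fold change 1.26, SE 0.18, adjusted P = 0.00231). If counted from the same start, the deletion the paper describes for WaplΔ reaches past this stretch and removes it from the mutant allele. Whether counting used strand is not given in the sources used here, so reads from these overlapping genes cannot be told apart.

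Of the 22 cohesin genes tested, 3 were called, where 1.16% of all genes were: Nipbl, Wapl and Stag1, which encodes a subunit that binds the ring. Stag1 had 2178, 2303 and 2448 normalised counts in Nipbl+/- brains and 1742 to 2082 (median 1988) in WaplΔ/+ brains. All 3 Nipbl+/- libraries lay above all WaplΔ/+ libraries, by a small amount (log2 fold change 0.24, SE 0.053, adjusted P = 0.0501). The call was lost without Nipbl+/- replicate 3. The ring subunits had log2 fold changes of 0.07 for Smc1a, 0.04 for Smc3 and -0.01 for Rad21 and were not called (adjusted P = 0.641, 0.817 and 0.958).

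Across all genes, 354 were called at a Benjamini-Hochberg adjusted P below 0.10 in edgeR's quasi-likelihood test, 1.16% of those tested. Far more of them were lower in Nipbl+/- brains, 271 (0.887%), than higher, 83 (0.272%). The differences were small: 316 of the 354 were under 2-fold, with a median size of 0.389 on the log2 scale. The median signed change over all genes was 0.0027. The groups did not overlap for 294 of the 354 called genes, where 3.69% of all genes tested had no overlap. Before adjustment, 1472 genes were higher and 1678 lower with P below 0.05. Of the 83 higher calls 35 were genes known only by clone names, against 18 of the 271 lower calls. The share of such names over all genes tested was not computed. A mean of 1 CPM was reached by 58 of the higher and 264 of the lower calls. In these bulk samples fewer cells of a type and less RNA per cell cannot be told apart.

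The number of calls rested on single libraries and on the WaplΔ/+ set used. Without Nipbl+/- replicate 3 there were 69 calls, without replicate 1 there were 128, and without replicate 2 there were 481. Without WaplΔ/+ replicate 1 there were 600, and without WaplΔ/+ replicate 3 there were 207. Against the WaplΔ/+ set labelled Δ first, 2 libraries with mt-Nd3 counts like those of the Nipbl+/- libraries, 8 genes were called (Wapl, Nipbl, Pcdhb16, Pcdhb17, Pcdhb20, Pcdhb22, Calcr and Dmrt2), and against the 5 libraries labelled Δ second 780 were called, 336 of them among the 354. A term for the label order in the fit of 10 libraries left 33 calls. With that term the fold change was again that of the 3 Nipbl+/- over the 2 WaplΔ/+ libraries labelled Δ first. The 5 labelled Δ second entered only the normalisation and the estimate of spread. The part of the smaller number of libraries in the lost calls was not tested. All 354 genes kept their direction under each of these choices. These fits reuse the libraries in which the genes were called, so kept direction is no separate test. A core of 55 genes, 49 lower and 6 higher, was called whichever of the 10 libraries was left out. With the term for label order 30 of the 354 were called, so no more than 30 of these 55 can have been. Examples are given below.

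**Figure D1:**
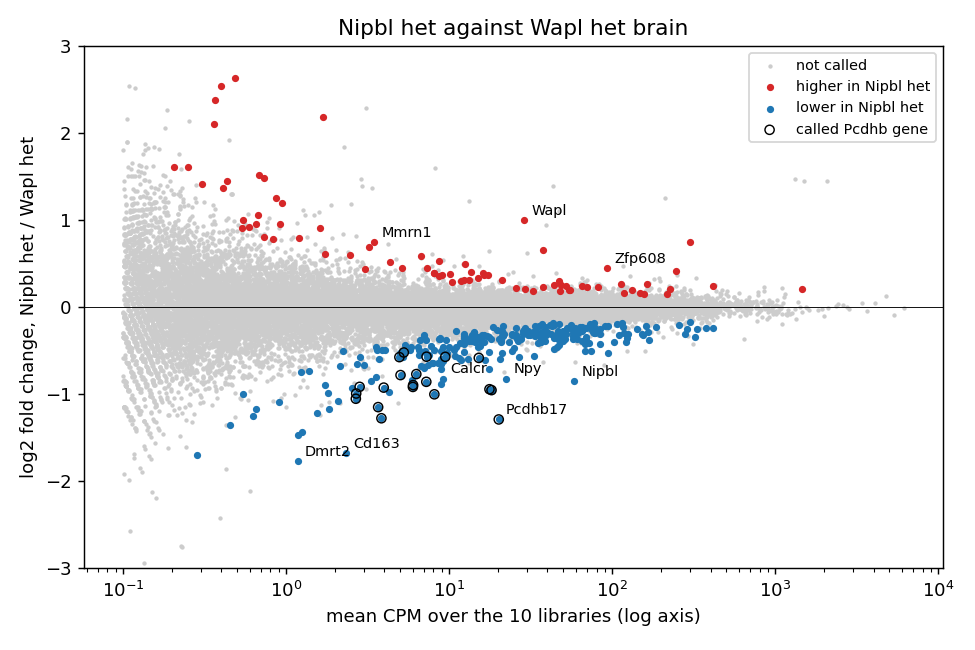
Log2 fold change of Nipbl+/- over WaplΔ/+ brains (vertical axis) against the mean CPM over the 10 libraries (horizontal log axis), 1 point per gene from 0.1 CPM upwards. Red and blue points are called genes, higher or lower in Nipbl+/- brains, and circles mark the called beta protocadherins. Calls in blue outnumber those in red (271 against 83), and 2 called genes lie beyond the vertical axis and 3 below the lowest CPM drawn.

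The clustered protocadherins are neuronal cell surface proteins that mark single neurons by combinations of isoforms, and the choice of promoter in their clusters depends on CTCF and cohesin loops. The alpha, beta and gamma genes lie next to each other on chromosome 18, and of them the beta genes were the family that separated the genotypes. All 22 beta genes had a negative log2 fold change, and 20 were called lower in Nipbl+/- brains, where 0.887% of all genes were. The Nipbl+/- and WaplΔ/+ libraries did not overlap for 21 of the 22, where 3.69% of all genes tested had no overlap. The mean in Nipbl+/- brains was between 40.9% and 69.6% of that in WaplΔ/+ brains (median 53.4%).

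Pcdhb17, the gene with the smallest P of the whole comparison, had normalised counts of 301, 329 and 314 in Nipbl+/- libraries and 683 to 835 (median 777) in WaplΔ/+ libraries (log2 fold change -1.29, SE 0.073, adjusted P = 1.13e-07). Its WT libraries had 629 to 761 (median 672) counts, which overlapped the WaplΔ/+ libraries and lay above all Nipbl+/- libraries. Pcdhb16 gave 56.7, 60.3 and 64.6 against 124 to 157 (median 149) (log2 fold change -1.28, SE 0.11, adjusted P = 1.83e-05). Pcdhb20 gave 341, 345 and 325 against 577 to 694 (median 656) (log2 fold change -0.94, SE 0.067, adjusted P = 1.04e-06), and the groups did not overlap for either gene. Pcdhb22 (log2 fold change -0.95, SE 0.078, adjusted P = 7.32e-06) and Pcdhb3 (log2 fold change -0.86, SE 0.085, adjusted P = 6.63e-05) had the same pattern.

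The beta genes that edgeR did not call were those at the alpha end of the cluster. Pcdhb1, with about 1 count in most libraries, had a log2 fold change of -0.47 (adjusted P = 0.911), and Pcdhb2 one of -0.70 (adjusted P = 0.117) with groups that stood apart by a narrow margin. DESeq2 called Pcdhb2 (adjusted P = 0.0454), as did edgeR in 3 of the 10 fits without 1 library. The log2 fold changes grew more negative towards the gamma end, with Pearson's r of -0.67 and Spearman's rho of -0.75 between the log2 fold change and the start of the gene, across 22 neighbouring genes of the same libraries that are not independent of each other. The beta genes resemble one another in sequence, and how reads that fit several genes were counted is not given in the sources used here.

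In Nipbl+/- brains all 22 beta means lay below WT and 21 were called against WT. In WaplΔ/+ brains 16 of 22 means lay above WT and edgeR called none in that comparison, which shares libraries with the direct contrast. There 8 were higher and none lower at an unadjusted P below 0.05, and DESeq2 called 2, Pcdhb3 and Pcdhb17, both higher in WaplΔ/+ brains. The double heterozygotes, which share none, had means between those of Nipbl+/- and WT brains for 22 of 22 genes, and 16 were called lower than WT, where 2.46% of all genes were. Calls for 16 beta genes were made whichever library was left out, and against the WaplΔ/+ set labelled Δ first 4 of the 20 were called. The term for label order left 12.

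**Figure D2:**
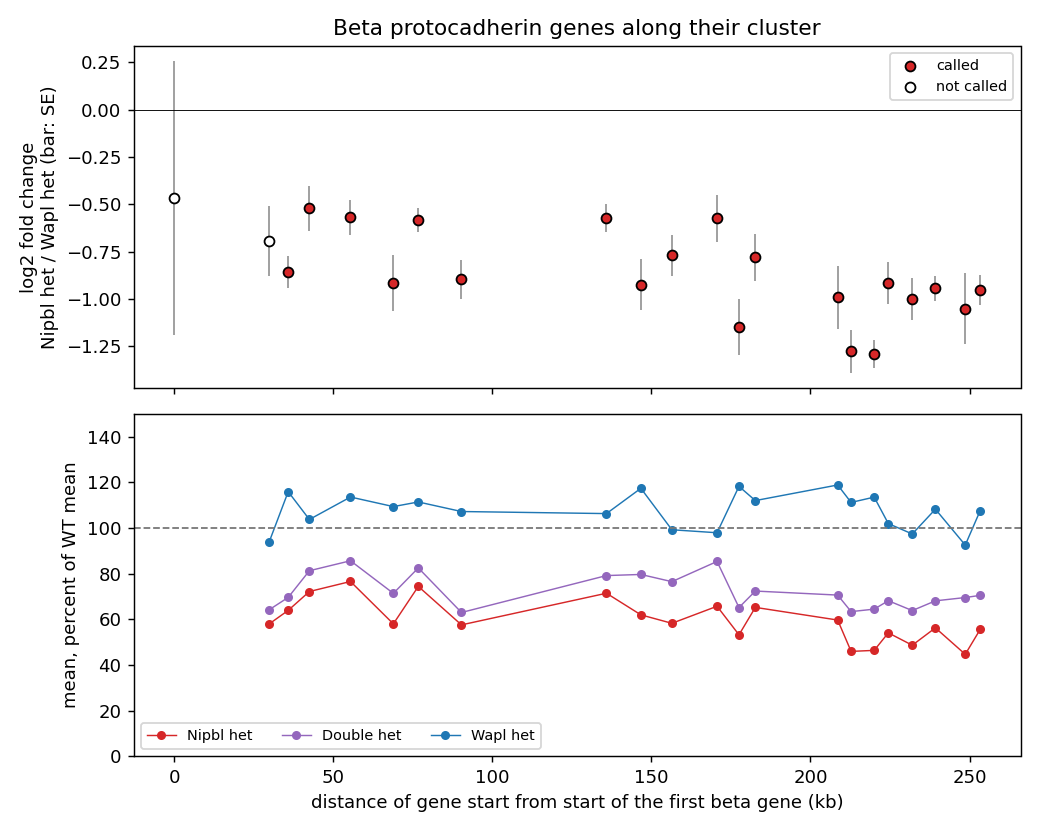
Beta protocadherin genes by the distance of their start from that of the first beta gene, in kb. The upper panel gives the log2 fold change of Nipbl+/- over WaplΔ/+ brains with its standard error, with 20 called genes filled and 2 open. The lower panel gives the mean of each mutant group as a percent of the WT mean (dashed line), without Pcdhb1, which was near 1 count. The Nipbl+/- line lies lowest at every gene, the double heterozygotes lie between it and WT, and the WaplΔ/+ line lies near or above WT.

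The neighbouring families did not follow in the direct contrast. None of the 13 alpha genes was called, with a median log2 fold change of -0.09 and 13 negative signs, and none of the 22 gamma genes, with a median of 0.02 and 22 positive signs. In both families no gene had an unadjusted P below 0.05 in edgeR, and DESeq2 called none. Against WT the alpha median was -0.19 in Nipbl+/- and -0.09 in WaplΔ/+ brains. In double heterozygotes against WT all 13 alpha genes were called lower (median -0.15), where 2.46% of all genes were, and no gamma gene was. Members of each of these families share their last exons, so their counts overlap and the members do not stand for separate measurements. Pcdha1 had 4544 ± 469 (SD, n = 3) normalised counts in Nipbl+/- brains and 4846 ± 351 (SD, n = 7) in WaplΔ/+ brains, and Pcdhga1 had 16033 ± 762 (SD, n = 3) and 15853 ± 429.7 (SD, n = 7).

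Protocadherins outside the clusters, which guide axons and cell sorting, were lower for 5 of 12 genes, with a list median of -0.20. Over all genes 0.887% were called lower. Pcdh10 had 4091, 4339.8 and 4083 counts in Nipbl+/- brains and 4744 to 5526 (median 5291) in WaplΔ/+ brains (log2 fold change -0.32, SE 0.048, adjusted P = 0.0041). Pcdh19, the gene of an X-linked epilepsy, had 1734, 2006 and 1774 and 2171 to 2681 (median 2506) (log2 fold change -0.41, SE 0.068, adjusted P = 0.00762). The groups did not overlap for either gene. Pcdh20 (-0.46), Pcdh7 (-0.51) and Pcdh11x (-0.47) were also called lower on the log2 scale. The call for Pcdh10 held whichever library was left out, and it was the sole one of the 5 that held without Nipbl+/- replicate 3. None of the 5 was called with the term for label order.

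Among called genes with a gene name whose groups did not overlap and whose mean reached 1 CPM, Dmrt2 had the largest decrease. Dmrt2, a transcription factor of the doublesex family, had 11.9, 14.6 and 14.8 counts in Nipbl+/- brains and 37.7 to 55.8 (median 44.9) in WaplΔ/+ brains (log2 fold change -1.77, SE 0.21, adjusted P = 0.000575). Its WT mean was 46.4 ± 8.88 (SD, n = 5). C1s1, a protease of the classical complement pathway, had 14.9, 14.6 and 20.1 and 34.8 to 58.4 (median 43.8) (log2 fold change -1.47, SE 0.21, adjusted P = 0.00271). Aldh1a7, an aldehyde dehydrogenase, had 17.9, 20.4 and 14.8 and 35.5 to 60.2 (median 49.9) (log2 fold change -1.44, SE 0.2, adjusted P = 0.00231). The lymphoid GTPase gene Gimap8 (log2 fold change -1.18, SE 0.17, adjusted P = 0.00231) and the inhibitory Fc receptor gene Fcgr2b (log2 fold change -1.22, SE 0.23, adjusted P = 0.0204) were lower at similarly low counts. Of the 8 genes with the largest decreases, which also include Cd163, Pcdhb16 and Pcdhb17, all but Fcgr2b were called whichever library was left out. Dmrt2, Aldh1a7, Pcdhb16 and Pcdhb17 were also called with the term for label order, and the rest of the 8 were not.

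Calcr, the calcitonin receptor gene and an imprinted gene in brain, was more abundant than these. It had 196, 183 and 179 counts in Nipbl+/- brains and 298 to 362 (median 330.4) in WaplΔ/+ brains (log2 fold change -0.82, SE 0.078, adjusted P = 4.31e-05). The groups were apart, and WT, at 275 ± 26.2 (SD, n = 5), lay between them. It was called against both WaplΔ/+ sets, with log2 fold changes of -0.90 and -0.79. Kcnk9 was the other of 40 imprinted genes called lower (log2 fold change -0.50, SE 0.11, adjusted P = 0.0586). The list median was -0.01, and 0.887% of all genes were called lower.

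Over all called genes the median log2 fold change was 0.44 for the higher and -0.38 for the lower genes, and 19 in each direction were over 2-fold. Of all calls over 2-fold, 13 reached a mean of 1 CPM. Of the increases chosen by the same rule, Zfp608, a zinc finger gene, had 3714, 3288 and 3739 counts in Nipbl+/- brains and 2479 to 2782 (median 2596) in WaplΔ/+ brains (log2 fold change 0.44, SE 0.051, adjusted P = 0.00036). Mmrn1, which encodes a multimerin found in endothelium and platelets, had 169, 145 and 143 and 80.3 to 103 (median 87.2) (log2 fold change 0.75, SE 0.11, adjusted P = 0.00231). Rad51d, a gene of homologous recombination, had 522, 536 and 486 and 349 to 434 (median 385) (log2 fold change 0.40, SE 0.072, adjusted P = 0.0138). These 3 genes, chosen among those with no overlap, were called whichever library was left out. Zfp608 was also called with the term for label order (adjusted P = 0.0447). Mmrn1 and Rad51d were not (adjusted P = 0.128 and 0.489).

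Tcp11 (log2 fold change 0.60, SE 0.13, adjusted P = 0.0369), Pmfbp1 (log2 fold change 0.45, SE 0.1, adjusted P = 0.0566), Phf2os1 (log2 fold change 0.44, SE 0.11, adjusted P = 0.0914) and Tmem44 (log2 fold change 0.21, SE 0.039, adjusted P = 0.0174) were also higher. None of these 4 was called without Nipbl+/- replicate 3. Phf2os1 is an antisense transcript, and its reads cannot be told apart from those of the gene on the other strand without strand information.

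**Figure D3:**
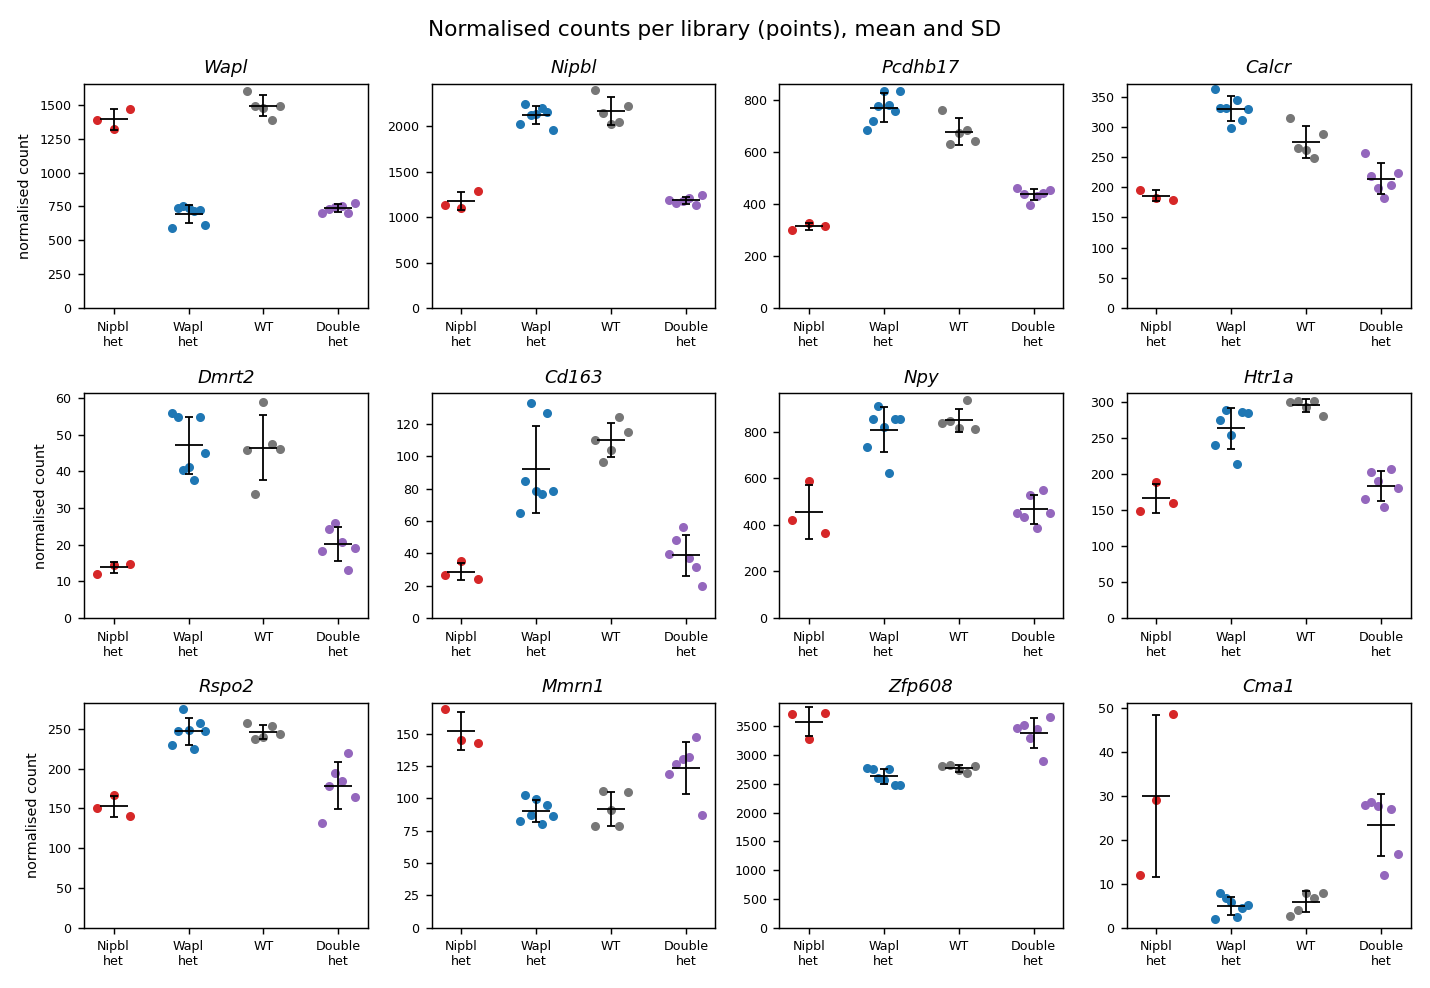
Normalised counts of 12 genes in each of the 21 libraries, by group. Nipbl het and Wapl het in the plots stand for Nipbl+/- and WaplΔ/+. Points are libraries, and the bar and whiskers give the mean and SD of each group. All 12 are called genes, several of them named only because the groups did not overlap. That the Nipbl+/- and WaplΔ/+ points stand apart in every plot is therefore no separate result. The double heterozygotes, with both genes reduced, lie nearer to Nipbl+/- than to WaplΔ/+ brains for 11 of the 12, Wapl being the exception.

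Neuropeptide genes were lower in Nipbl+/- brains for 5 of the 25 tested, where 0.887% of all genes were. None was called higher, and the list median was -0.26. Npy, which encodes neuropeptide Y of interneurons and feeding circuits, had 419, 586 and 363 counts in Nipbl+/- brains and 624 to 912 (median 854) in WaplΔ/+ brains (log2 fold change -0.82, SE 0.13, adjusted P = 0.00469). The highest Nipbl+/- library lay just under the lowest WaplΔ/+ library. Adcyap1, which encodes the peptide PACAP, had 310.2, 317 and 313 and 398 to 473 (median 413) (log2 fold change -0.42, SE 0.067, adjusted P = 0.0059), a wider gap relative to the spread. Sst, for somatostatin (log2 fold change -0.29, SE 0.058, adjusted P = 0.0252), Tac1, for substance P (log2 fold change -0.33, SE 0.067, adjusted P = 0.0281), and Penk, for enkephalins (log2 fold change -0.51, SE 0.1, adjusted P = 0.0346), were also lower. Npy and Adcyap1 kept their calls whichever library was left out, and the other 3 lost theirs without Nipbl+/- replicate 3. None of the 5 neuropeptide genes was called with the term for label order. Pomc and Agrp, which with Npy mark the feeding centre of the hypothalamus, had log2 fold changes of 0.19 and 0.06 and were not called (adjusted P = 0.771 and 0.923).

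Among called genes were 9 receptors for amines and peptides, picked after their values were seen, so they stand for no class of receptors. The serotonin receptor gene Htr1a had 149, 189 and 160.0 counts in Nipbl+/- brains and 214 to 289 (median 275) in WaplΔ/+ brains (log2 fold change -0.67, SE 0.11, adjusted P = 0.0059). The noradrenaline receptor gene Adra2a had 498, 553 and 548 and 643 to 751 (median 695) (log2 fold change -0.40, SE 0.065, adjusted P = 0.0068). Neither pair of groups overlapped, and these calls held whichever library was left out. Neither gene was called with the term for label order (adjusted P = 0.151 and 0.271). Calls for the other 7 did not all hold: Htr1b (-0.45), Htr7 (-0.35), the dopamine receptor Drd1 (-0.38), Adra1b (-0.52), the muscarinic receptor Chrm2 (-0.52), the neuropeptide Y receptor Npy1r (-0.61) and the somatostatin receptor Sstr2 (-0.37) on the log2 scale, of which Chrm2 alone was called without Nipbl+/- replicate 3 and none without replicate 1.

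Lists of synaptic and channel genes held few calls, all of them lower, and their counts are to be read against the 0.887% of all genes called lower. Of 25 glutamate receptor genes 4 were called (list median -0.15). Grin3a, a subunit of NMDA receptors, had 1919.6, 2599 and 2287 counts in Nipbl+/- brains and 2592 to 3669 (median 3546) in WaplΔ/+ brains, groups that overlapped (log2 fold change -0.53, SE 0.11, adjusted P = 0.0308). Grin2a (log2 fold change -0.50, SE 0.12, adjusted P = 0.0838), Grm8 (-0.31) and Grik4 (-0.22) made up the rest. None of the 4 was called without Nipbl+/- replicate 1 or replicate 3.

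Of 15 GABA-A receptor genes 1 was called, Gabra5 (log2 fold change -0.44, SE 0.1, adjusted P = 0.0643), with a list median of -0.20. Further calls were Kcnk2 (-0.27), Kcnj2 (-0.62) and Kcnk9 among 47 potassium channel genes, Syt4 (-0.31) and Cplx2 (-0.21) among 37 genes of vesicle release, and Cacna1i (-0.32) among 29 sodium and calcium channel genes. None of these 7 was called without Nipbl+/- replicate 3. Cntnap4, a neurexin relative at inhibitory synapses, was the only one of 36 synapse organizer genes called. It had 1000.1, 988 and 985 counts against 1167 to 1357 (median 1289) (log2 fold change -0.36, SE 0.05, adjusted P = 0.00218), with no overlap, and held whichever library was left out. Cntnap4 was not called with the term for label order (adjusted P = 0.12). The neurexin genes Nrxn2 and Nrxn3 stood at -0.01 and 0.02 on the log2 scale and were not called.

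Secreted factors and axonal genes singled out after their values were seen included Lypd6, a modulator of nicotinic receptors, with 393, 392 and 362 counts in Nipbl+/- brains and 533 to 663 (median 568) in WaplΔ/+ brains (log2 fold change -0.60, SE 0.071, adjusted P = 0.000428). The semaphorin Sema5a had 1003, 945 and 1044 and 1222 to 1449 (median 1286) (log2 fold change -0.39, SE 0.055, adjusted P = 0.00231). The neurotrophin Ntf3 had 42.7, 58.3 and 44.5 and 74.8 to 111 (median 86.6) (log2 fold change -0.93, SE 0.16, adjusted P = 0.0134), at a lower level. Sema3c (-0.45), Sema3a (-0.28), the activin subunit Inhba (-0.64), Ccbe1 (-0.71), the microglial growth factor Csf1 (-0.38) and the neurofilaments Nefm (-0.34) and Nefl (-0.25) were lower on the log2 scale too. Of these 10, Lypd6, Sema5a, Ccbe1 and Nefm held whichever library was left out. Lypd6, Sema5a and Ccbe1 were also called with the term for label order, and the rest of the 10 were not.

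Markers of neuronal classes moved in part, and their counts are to be read against the 0.887% of all genes called lower. Of 22 cortical layer genes 4 were lower, among them the transcriptional regulators Etv1 (log2 fold change -0.41, SE 0.079, adjusted P = 0.0236), Ldb2 (log2 fold change -0.33, SE 0.067, adjusted P = 0.0308) and Nr4a2 (-0.36). Etv1, of deep-layer neurons, had 865, 1031 and 793 counts in Nipbl+/- brains and 1076 to 1336 (median 1162) in WaplΔ/+ brains, with no overlap. Tbr1, Bcl11b and Fezf2, which define deep layers, stood at 0.01, 0.13 and 0.14 and were not called. None of the 4 calls held without Nipbl+/- replicate 1 or replicate 3.

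The counts in the next lists also stand beside 0.887% of all genes called lower. Of 18 monoaminergic genes 4 were lower: Aldh1a1 (log2 fold change -0.64, SE 0.13, adjusted P = 0.0308), the noradrenaline enzyme Dbh (-0.65), the dopamine transporter Slc6a3 (-0.53) and Nr4a2. Th and Ddc, the enzymes that open and continue catecholamine synthesis, stood at -0.02 and 0.07 (adjusted P = 0.975 and 0.866). Npy and Sst were also the calls among 21 GABAergic genes, while Gad1, Gad2 and Slc32a1, which define these neurons, stood at 0.08, 0.04 and 0.01. Of 22 progenitor genes 2 were lower, Hopx of outer radial glia (log2 fold change -0.58, SE 0.095, adjusted P = 0.00762) and Fabp7 (-0.24), while Pax6, Sox2 and Hes1 had positive values of 0.11, 0.19 and 0.20 and were not called. Hopx held whichever library was left out, and the 4 monoaminergic genes and Fabp7 were not called without Nipbl+/- replicate 3. Hopx was not called with the term for label order (adjusted P = 0.264).

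Of 12 border macrophage genes 2 were called lower, where 0.887% of all genes were. Of the 12, 10 had a negative sign and 2 a positive one. Cd163, the haemoglobin scavenger receptor of border macrophages, had 26.8, 34.99 and 24.4 counts in Nipbl+/- brains and 64.9 to 133 (median 78.7) in WaplΔ/+ brains (log2 fold change -1.68, SE 0.25, adjusted P = 0.00344). All Nipbl+/- libraries lay under all WaplΔ/+ libraries, and WT stood at 110.0 ± 10.5 (SD, n = 5). The other defining border macrophage genes Mrc1 (-0.27) and Lyve1 (-0.08) were not called, and Ms4a7 was (log2 fold change -1.25, SE 0.3, adjusted P = 0.0766). Siglec1, of the same list, had 62.6, 47.6 and 37.1 counts against 18.2 to 38.6 (median 26.9) and a value in the other direction (log2 fold change 0.81, adjusted P = 0.112), and DESeq2 called it higher (adjusted P = 0.0522).

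Of 20 microglial genes 4 were called lower, where 0.887% of all genes were. A negative sign was found for 19, with a list median of -0.30. Fcrls had 158, 217 and 153 counts against 248 to 403 (median 334) (log2 fold change -0.89, SE 0.14, adjusted P = 0.0059), and Cx3cr1, the fractalkine receptor, had 275, 247 and 241 against 336 to 462 (median 359) (log2 fold change -0.57, SE 0.1, adjusted P = 0.0138). P2ry12 (-0.58) and Laptm5 (-0.34) completed the calls, and Tmem119, a further defining gene, stood at -0.15 (adjusted P = 0.801). The summed level of the list was 158 to 186 CPM in Nipbl+/- brains, 187 to 230 CPM in WaplΔ/+ brains and 183 to 217 CPM in WT brains. Of the macrophage and microglial calls, those for Cd163 and Fcrls held whichever library was left out. Neither was called with the term for label order (adjusted P = 0.145 and 0.265).

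Genes of 3 mast cell proteases, picked after their values were seen, were higher in Nipbl+/- brains, and a further one, Mcpt4, was not called (log2 fold change 1.504, adjusted P = 0.511). The chymase gene Cma1 had 11.9, 29.2 and 48.7 counts in Nipbl+/- libraries and 2.03 to 7.96 (median 5.22) in WaplΔ/+ libraries (log2 fold change 2.54, SE 0.39, adjusted P = 0.00509). Cpa3 had 9.94, 34.0 and 68.9 and 3.98 to 7.68 (median 6.27) (log2 fold change 2.64, SE 0.43, adjusted P = 0.00656), and the tryptase gene Tpsb2 had 7.95, 27.2 and 45.6 and 2.43 to 6.38 (median 5.07) (log2 fold change 2.38, SE 0.41, adjusted P = 0.0108). All 3 called genes were low in every WaplΔ/+ library and uneven among the Nipbl+/- libraries, highest in replicate 3. In the double heterozygotes, which share no library with the contrast, Cma1 was also higher than in WT (log2 fold change 1.996, adjusted P = 0.00149), as were Cpa3 (1.30, adjusted P = 0.0408) and Tpsb2 (1.005, adjusted P = 0.0477). Other mast cell genes had other values: Ms4a2, for a subunit of the IgE receptor, stood at 2.98, 1.94 and 4.24 and 0.960 to 4.18 (median 3.04), and Kit, which neurons also express, was lower in Nipbl+/- brains (log2 fold change -0.21, SE 0.041, adjusted P = 0.0208). Without Nipbl+/- replicate 3 the call for Cma1 held and those for Cpa3 and Tpsb2 did not. None of the 3 was called with the term for label order.

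Some epidermal genes, picked after their values were seen, were high in a part of the Nipbl+/- libraries. The keratin gene Krt5 had 30.8, 1.94 and 41.3 counts in Nipbl+/- replicates 1, 2 and 3 and 3.04 to 8.63 (median 4.87) in WaplΔ/+ libraries (log2 fold change 2.10, SE 0.51, adjusted P = 0.0826). Calm4 had 27.8, 1.94 and 39.2 and 0 to 4.98 (median 2.09) (log2 fold change 3.32, SE 0.65, adjusted P = 0.0246), and Hrnr had 17.9, 0 and 29.7 and 0 counts in 6 of 7 WaplΔ/+ libraries. Replicates 1 and 3 stood above the WaplΔ/+ libraries and replicate 2 did not. Krt10 (0.59) and Krt1 (0.53), at higher levels, were also lowest in replicate 2, and Krt14 was not called (1.15, adjusted P = 0.27). The part of these epidermal RNAs in other differences was not tested. None of the 5 called genes held without Nipbl+/- replicate 3.

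Of 24 endothelial, 26 meningeal and 16 bone and cartilage genes, 1 each was called, where 1.16% of all genes were. Prnd, a prion protein relative of growing brain vessels, had 117, 96.2 and 148 counts in Nipbl+/- brains and 185 to 247 (median 217) in WaplΔ/+ brains (log2 fold change -0.83, SE 0.13, adjusted P = 0.00445), while Cldn5, Pecam1 and Cdh5, which define endothelium, stood at -0.01, -0.17 and 0.02. Gjb2, a gap junction gene of the meninges, had 248, 181 and 178 and 285 to 360.3 (median 310.4) (log2 fold change -0.63, SE 0.11, adjusted P = 0.00946), and here WT at 226 ± 22.3 (SD, n = 5) lay near the Nipbl+/- mean. Runx2, the regulator of bone formation, had 40.8, 28.2 and 42.4 and 61.9 to 98.2 (median 77.5) (log2 fold change -1.08, SE 0.17, adjusted P = 0.0059), although Col2a1 and Acan of cartilage stood at -0.17 and -0.87 and were not called. The Wnt agonist Rspo2, the call among 50 Wnt pathway genes, had 151, 167 and 141 and 225 to 275 (median 248) (log2 fold change -0.69, SE 0.088, adjusted P = 0.001). Prnd, Runx2 and Rspo2 held whichever library was left out, and Gjb2 did not hold without Nipbl+/- replicate 3. Prnd and Rspo2 were also called with the term for label order, and Runx2 and Gjb2 were not.

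Of 29 collagen genes 2 were called lower, where 0.887% of all genes were, Col23a1 (-0.36) and Col25a1 (-0.38). Leaving out single libraries gave 0 to 4 collagen calls, and neither held without Nipbl+/- replicate 1 or replicate 3. Among nuclear RNAs singled out after their values were seen, Malat1 had 9204, 10411 and 19639 counts in Nipbl+/- libraries and 6389 to 10176 (median 7299) in WaplΔ/+ libraries (log2 fold change 0.74, SE 0.18, adjusted P = 0.0766). Nipbl+/- replicate 3 stood far above all others, the groups overlapped, and the call was lost without it. Miat was called higher by less (0.21).

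In edgeR 15 lists held no call in either direction, the alpha and gamma protocadherins among them. The others were the 30 cell cycle genes (list median 0.0035), 16 genes of early neurons (0.01), 20 of cerebellar lineages (-0.04), 20 of astrocytes (-0.24), 21 of oligodendrocytes (-0.20), 45 chromatin modifiers (0.08), 23 Hox genes (-0.45), 15 erythroid genes (-0.42), 19 of choroid plexus and ependyma (-0.20), 14 of pericytes and vascular muscle (-0.05), 14 of pituitary (0.14), 11 of pineal and photoreceptors (0.01) and 13 mitochondrially encoded genes (-0.14). At an unadjusted P below 0.05 edgeR had 56 of the 296 genes of the 15 lists, and DESeq2 called 12, among them mt-Nd3 and the astrocyte genes Slc1a3, Gja1, Gjb6 and Gpr37l1. Leaving out single libraries gave up to 4 astrocyte, 4 oligodendrocyte, 5 chromatin modifier and 3 erythroid calls, without Nipbl+/- replicate 2 or WaplΔ/+ replicate 1, without Nipbl+/- replicate 2, without WaplΔ/+ replicate 2 and without WaplΔ/+ replicate 6. The Hox median was 0.07 without Nipbl+/- replicate 1 and -0.90 without replicate 3, and the erythroid median was -0.22, -0.24 and -1.001 without Nipbl+/- replicates 1, 2 and 3. Signs leaned one way in some lists: 42 of 45 chromatin modifiers were positive and 17 of 20 astrocyte genes negative. Gfap, Aqp4 and Aldh1l1, which define astrocytes, stood at 0.15, -0.30 and -0.10. Hoxb8, a gene of the caudal nervous system, ranged from 0.994 to 185 counts among Nipbl+/- libraries. The haemoglobin genes Hba-a1 and Hba-a2 stood at -0.50 and -0.63 (adjusted P = 0.385 and 0.301). Among the other lists, Nr4a2 was the 1 call of 20 immediate early genes and Dmrt2 that of 37 regulators of progenitor domains. Over all genes 1.16% were called.

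**Figure D4:**
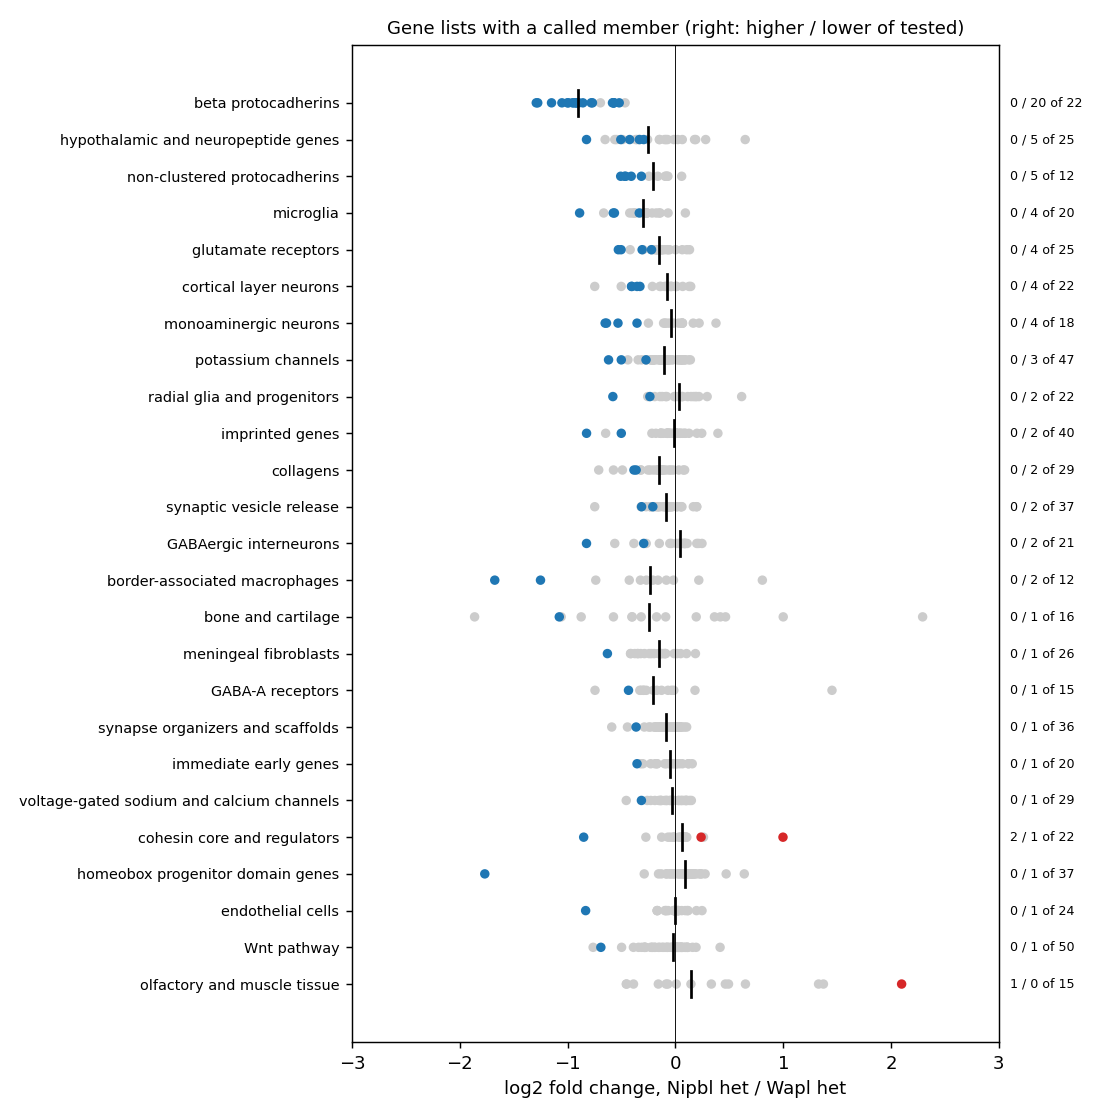
Log2 fold change of Nipbl+/- over WaplΔ/+ brains for the members of the 25 gene lists with at least 1 called gene. Each point is a gene, blue where called lower, red where called higher and grey where not called, the black bar is the list median, and the numbers at the right give genes called higher and lower of those tested. The beta protocadherins stand apart at a median of -0.91, and calls in other lists are nearly all lower.

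The called genes were not spread evenly over gene length. Among genes whose mean reached 1 CPM, 115 of 2256 genes spanning over 100 kb were lower in Nipbl+/- brains (5.10%), against 59 of 6164 genes of 20 to 100 kb (0.957%) and 80 of 7125 shorter genes (1.12%). The median expression of the longest class, 35.7 CPM, was close to the 33.0 CPM of the middle class. Higher calls were 0.399%, 0.292% and 0.309% of the same classes. In the separate comparison of double heterozygotes with WT, lower calls took 14.3% of genes over 100 kb, 3.47% of the middle class and 2.19% of the shortest class.

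By position, 2 of 155 tested genes within 10 Mb of Wapl were called (1.29%, against 1.16% of all genes), 5830448L01Rik and Galnt15, which encodes an enzyme of protein glycosylation and was lower (log2 fold change -0.85, SE 0.19, adjusted P = 0.0509). The call for Galnt15 was lost without Nipbl+/- replicate 1 or replicate 3. None of the 79 tested within 10 Mb of Nipbl was called by edgeR apart from Nipbl itself. At an unadjusted P below 0.05 there were 18 of the 79, against 3150 of all 30552 genes, and DESeq2 called 7 of the 79, against 647 of all. Chromosome 18 had 4.01% of its 699 tested genes called, and 1.18% of 677, 8 genes, without the beta protocadherins.

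For 327 of the 354 called genes (92.4%) the WT mean lay nearer to the WaplΔ/+ mean than to the Nipbl+/- mean. This held for 261 of the 271 lower genes and 66 of the 83 higher genes. The share was not computed over all genes. Called genes were chosen for a difference between means of 3 and 7 libraries, and the part of these unequal numbers in the share was not tested. The WT mean lay beyond the WaplΔ/+ mean for 153 genes and between the groups for 200. Against WT, the median log2 fold change of the 271 lower genes was -0.41 in Nipbl+/- brains and 0.0046 in WaplΔ/+ brains, and that of the 83 higher genes was 0.33 and -0.12. Of the 354, 307 were called between Nipbl+/- and WT brains, where 11.2% of all genes were, and 19 between WaplΔ/+ and WT brains, where 2.22% were. These comparisons share libraries with the direct contrast.

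Some genes also differed between WaplΔ/+ and WT brains. Gjb2 was called higher in WaplΔ/+ than in WT brains (log2 fold change 0.48, adjusted P = 0.0118) and had a value of -0.16 in Nipbl+/- brains (adjusted P = 0.478). Prnd was higher in WaplΔ/+ brains (0.37, adjusted P = 0.0456) and lower in Nipbl+/- brains (-0.47, adjusted P = 0.0265), both against WT. Calcr had the same signs (0.26, adjusted P = 0.0629, and -0.57, adjusted P = 0.000731).

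The double heterozygotes carry both reduced genes, and for 263 of the 354 genes their mean lay nearer to Nipbl+/- than to WaplΔ/+ brains. The share was 226 of 271 among the lower genes and 37 of 83 among the higher genes, and it was not computed over all genes. Double heterozygotes against WT form a comparison that shares no library with the contrast. There, 332 of the 354 genes (93.8%) had the same sign as between Nipbl+/- and WaplΔ/+ brains, where 59.0% of all genes tested did, and 64.8% of those whose mean reached 1 CPM. Of the 354, 199 were called between double heterozygotes and WT, where 3.28% of all genes were, and 197 of these went the same way.

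Of the 271, 185 were called lower in double heterozygotes than in WT, where 2.46% of all genes were, with a median log2 fold change of -0.26 against -0.38 in the direct contrast. Of the 83 higher genes, 14 were called and 12 of them were higher, where 0.812% of all genes were, with a median of 0.11 against 0.44. Wapl and 5830448L01Rik were the genes called in opposite directions, both at the locus deleted in the double heterozygotes as in WaplΔ/+ brains. Npy was lower in double heterozygotes than in WT (-0.85, adjusted P = 4.51e-06), as were Cd163 (-1.49, adjusted P = 8.83e-05) and Htr1a (-0.68, adjusted P = 9.1e-05). C1s1 had a value of -0.18 and was not called there (adjusted P = 0.688).

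**Figure D5:**
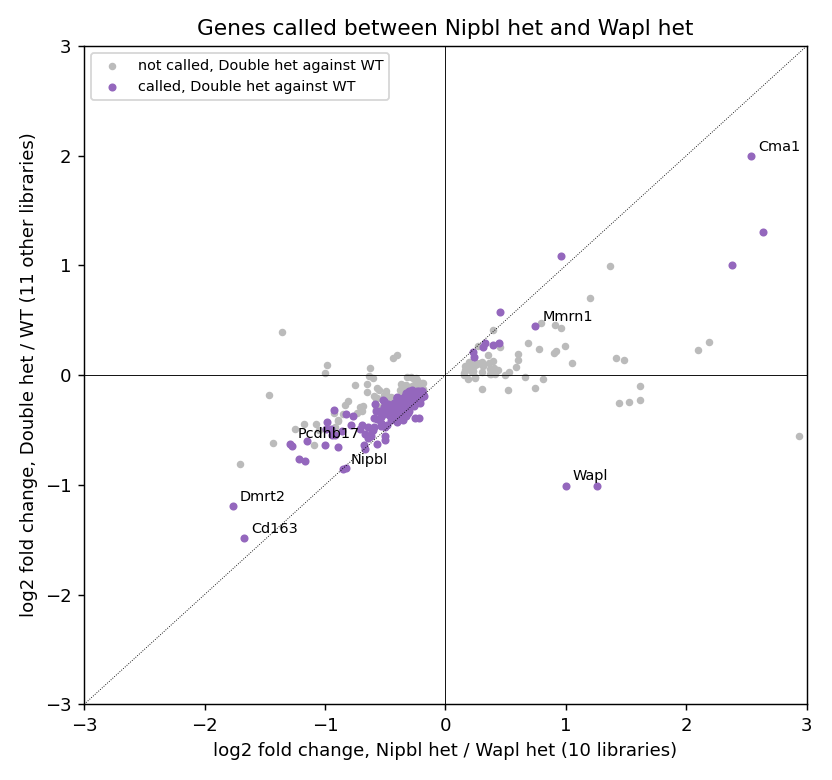
Log2 fold change of double heterozygotes over WT (11 libraries, vertical axis) against that of Nipbl+/- over WaplΔ/+ (10 libraries, horizontal axis) for the 354 called genes, with 4 genes outside the axes. Purple points were also called in the comparison with WT, and the dotted line marks equal values. Of the genes, 332 lie at the lower left or upper right, and Wapl lies at the lower right.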

How the data were processed

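Raw counts per gene were deposited by the authors as a single table. Per the labels and the study's methods, poly(A) RNA libraries were trimmed with cutadapt 2.4, aligned to mm10 with STAR 2.5.3a and counted with featureCounts of Subread 1.6.4. The strand setting and the handling of reads that map to several genes are not given in the sources used here.

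Genes with at least 10 TMM-normalised counts summed over the 21 libraries were tested with edgeR 4.0.16 in R 4.3.3 (glmQLFit and glmQLFTest, Benjamini-Hochberg adjustment over all genes, called below 0.10). The fit held the 3 Nipbl+/- and 7 WaplΔ/+ libraries, with no covariate, and fold changes are Nipbl+/- over WaplΔ/+. Normalised counts are counts scaled to the mean effective (TMM) library size of the 21 libraries, and the SE is the fold change divided by the square root of the F statistic. The statistical steps were tested on simulated data. Comparisons with WT used separate fits.

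Genes were named as follows: both targeted genes, the 8 largest changes in each direction among called genes with a gene name whose mean reached 1 CPM and whose groups did not overlap, the 5 smallest P in each direction, and of each list up to 4 called and 3 defining members. Other genes are named as chosen after their values were seen. The comparison and the lists were chosen with earlier results of these data known. Alternatives were DESeq2 1.42.0, its size factors, other filters, a fit of all 4 groups, a replicate block, a stricter threshold, label order, leaving out genes near the targeted loci and leaving out each library. The study treats the libraries of a group as biological replicates. DESeq2 on WaplΔ/+ against WT was added after the data were seen. A few genes that the rule names are not reported here.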

Additional observations from a re-analysis of the deposited data

Results flagged for a closer look

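Among the 7 WaplΔ/+ libraries, the highest or the lowest library stood apart from the others by Dixon's test for 7 of the 136 genes examined. Chance gives this in about 1 in 20 groups. WaplΔ/+ replicate 1 was high for Tubb3, at 66848 normalised counts, and for the cohesin subunit gene Rad21, at 6349. Replicate 3 was high for the cartilage gene Col2a1, at 3048. Replicate 6 was low for the haemoglobin genes Hba-a1, at 2280.0, and Hba-a2, at 1066, and was the library with a count of Hrnr, at 0.912 against 0 in the others. Replicate 7 was low for the deep-layer gene Tbr1, at 2769. Of these genes Hrnr was called, and the others were not.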

How the results depend on the processing

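All 97 called genes among those chosen for description kept their direction under every alternative, and none reversed. The alternatives reuse the libraries in which these genes were called, so this is no separate test. Of 123 genes that were not called, 59 changed sign under some alternative. The number of calls moved more. DESeq2 called 647 genes (174 higher, 473 lower), and a single fit of all 4 groups called 568 (163 higher). Testing without the count filter gave 143 higher calls. A threshold of 0.05 left 196 (31 higher, 165 lower). Against the 2 WaplΔ/+ libraries labelled Δ first there were 8 calls (1 higher, 7 lower), against the 5 labelled Δ second 780 (272 higher, 508 lower), and a term for label order left 33 (3 higher, 30 lower). The fold change with that term is also one against the libraries labelled Δ first. Leaving out single libraries gave 69 to 600 calls, 10 to 153 higher and 59 to 447 lower. The share of called genes with the WT mean nearer to WaplΔ/+ brains was 77.5% to 95.6% over these fits, lowest without WaplΔ/+ replicate 2. The share with the double heterozygote mean nearer to WaplΔ/+ brains, 25.7%, was 13.04% to 35.8%, lowest without Nipbl+/- replicate 3, and 18.4% at the threshold of 0.05. The cause of these shifts was not tested.

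With the replicate number as a replicate block, 233 genes were called (45 higher), of which 150 were among the 354. The fold change then rests on replicates 1 to 3 of each group, since Nipbl+/- brains have no others. Deviations of same-numbered libraries correlated at 0.41, 0.01 and -0.19, and not every library correlated best with its own number. These values are too few to decide whether the numbers pair the libraries.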
